A study of Mus musculus with 6 samples.

Results

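Mir532, Mir188, Mir362, Mir501 and Mir500 form a cluster of 5 microRNA hairpins within the X-linked gene Clcn5, which encodes a chloride-proton exchanger of endosomes. It was described through 8 mature strands chosen by name: mmu-miR-532-5p, mmu-miR-532-3p, mmu-miR-500-3p, mmu-miR-501-3p, mmu-miR-501-5p, mmu-miR-362-5p, mmu-miR-362-3p and mmu-miR-188-5p (the species prefix is dropped below where it reads more plainly). Of these 8 strands 7 were measured, among 1452 features of which 1184 were microRNAs. miR-532-3p was not analysed here. Small RNA libraries of GMLPs, progenitors sorted from mouse bone marrow, were compared in 2 groups. The L28BME libraries (n = 3) came from mice with the genotype LIN28B MLL-ENL, and the ME libraries (n = 3) from mice with the genotype MLL-ENL. MLL-ENL, a fusion gene of leukaemia, and 3 days of culture with doxycycline (DOX) were shared by both groups, so the genotypes differ by LIN28B. The sources used here do not give age, sex, strain or the promoters that drive the alleles. They do not say either that the libraries came from separate mice. The p-values set the difference between groups against the spread of libraries within groups, and that spread may be only technical.

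A microRNA hairpin is cut from a longer transcript and trimmed to a duplex of 2 short strands, named 5p and 3p by the arm they come from. One of them is usually kept in Argonaute and directs it to target mRNAs through its seed, bases 2 to 8. Hairpins that lie close together on one strand can be cut from a single transcript, while the level of each mature strand also depends on processing and decay. LIN28B, a fetal protein, binds let-7 precursors and blocks their maturation, and its zinc knuckles bind GGAG in let-7 precursor loops. The Clcn5 cluster is no part of the let-7 family. Of its strands, miR-532-5p has been reported to repress RUNX3 in human melanoma cells, miR-362-5p to repress CYLD in human gastric cancer cells, miR-188-5p to steer mouse bone marrow stromal cells between bone and fat, and miR-501 to act in mouse muscle progenitors.

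In the GRCm38 annotation the 5 hairpins lie on the minus strand of chromosome X within 10815 bases, in the order Mir532 (7248402 to 7248497), Mir188 (7247989 to 7248056), Mir362 (7241982 to 7242046), Mir501 (7241243 to 7241351) and Mir500 (7237683 to 7237774) along the direction of transcription. Mir532 and Mir188 are 345 bases apart and Mir362 and Mir501 are 630 bases apart, while 5942 bases separate Mir188 from Mir362 and 3468 separate Mir501 from Mir500. All 5 hairpins are intronic and in the same orientation as Clcn5 (7153810 to 7319358). They lie in a single intron, 7213011 to 7316658, which is intron 3 or intron 2 of the coding transcripts that span it. Of 5 annotated Clcn5 transcripts 3 span the cluster, and 2 begin downstream of it.

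**Figure D1:**
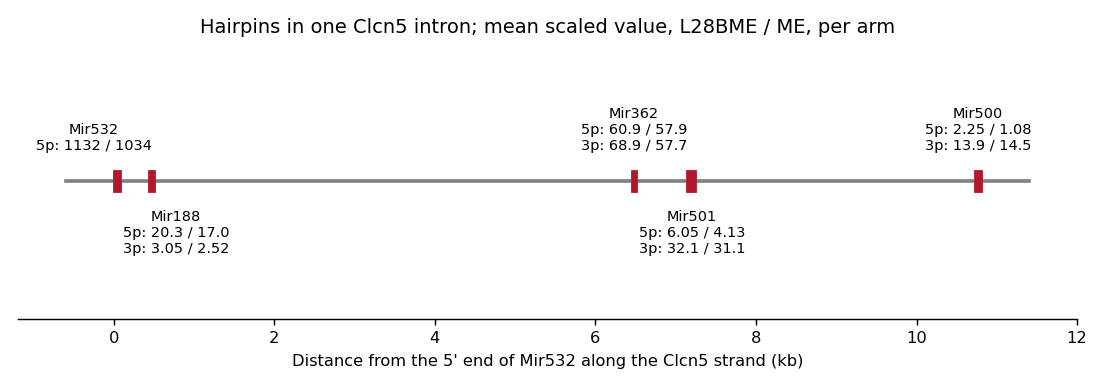
Map of the cluster. The horizontal axis is the distance in kilobases from the 5′ end of Mir532 along the Clcn5 strand, the boxes are the hairpins drawn to scale, and the numbers beside each hairpin are the mean deposited scaled values of its arms in L28BME and ME libraries (n = 3 each). Mir532 and its 1132 in L28BME and 1034 in ME stand at the upstream end, and Mir500 at the downstream end.

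Sequences are shown here because the strands of neighbouring hairpins resemble each other, which bears on how reads are assigned and on which strands share targets. They are RefSeq mature sequences (GRCm38.p6) read 5′ to 3′, with the seed in capitals. The 2 strands miR-500-3p and miR-501-3p have one seed, AUGCACC.
miR-500-3p: aAUGCACCugggcaaggguuca
miR-501-3p: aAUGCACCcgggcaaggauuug
The 5p strands of the same neighbourhood begin alike, and miR-362-5p shares the seed AUCCUUG with miR-500-5p, the opposite strand of miR-500-3p.
miR-362-5p: aAUCCUUGgaaccuaggugugaau
miR-500-5p: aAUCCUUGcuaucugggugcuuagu
miR-501-5p: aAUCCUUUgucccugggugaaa
The remaining strands with an entry each have a seed found in no other strand of the cluster.
miR-362-3p: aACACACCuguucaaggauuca
miR-188-5p: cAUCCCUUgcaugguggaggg
miR-188-3p: cUCCCACAugcaggguuugca

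miR-500-3p and miR-501-3p are 22 bases long and differ at 4 positions counted from the 5′ end, U9C, G18A, C21U and A22G, with the base of miR-500-3p first. They are identical over the first 8 bases, as are miR-362-5p and miR-500-5p. miR-501-5p matches both of those over its first 7 bases. The hairpins group in the same way: Mir500 and Mir501 were identical at 80.2% of 91 aligned bases and Mir500 and Mir362 at 73.8% of 65, Mir501 and Mir362 at 67.7% of 65, and Mir188 and Mir532 at 68.7% of 67. The other pairs matched at 47.7% (Mir362 and Mir188) to 59.1% (Mir501 and Mir188). Loss of bases 21 and 22 at a trimmed end would still leave U9C and G18A to tell the strands apart. Reads with errors could be split between miR-500-3p and miR-501-3p in counting, and their single values are uncertain to that extent. Outside the cluster the seed of miR-362-3p is shared by miR-329-3p and that of miR-188-5p by miR-7061-3p, and both were too scarce to test, averaging 0.735 and 0.189 in L28BME and 0.151 and 0.0791 in ME (deposited scaled values).

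The hairpin with both arms past the filter is Mir362, printed with its mature arms in capitals.
Mir362: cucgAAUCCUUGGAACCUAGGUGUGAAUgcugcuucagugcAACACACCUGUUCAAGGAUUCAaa

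Over the 1452 features the libraries held 2745970 to 4332618 reads in L28BME and 4778027 to 5528960 in ME. They were recovered as whole multiples of the smallest deposited value, and shares of reads below refer to these totals. let-7 family strands took 3.23% to 3.32% of reads in L28BME and 26.2% to 27.5% in ME. miR-223-3p and miR-142a-3p, listed here as myeloid, summed to scaled values of 132509 to 146878 in L28BME and 123253 to 145675 in ME. Of this miR-142a-3p alone averaged 59415 in L28BME and 55716 in ME, and the sum is not a measure of myeloid cells. The 4 erythroid markers summed to 9.68 to 10.8 in L28BME and 4.41 to 7.12 in ME, none of them past the filter. The 5 stromal and endothelial markers measured summed to 353 to 361 in L28BME and 189 to 208 in ME, almost all of it miR-199a-3p. Of its scarce members miR-199a-5p (0.0789 in L28BME, 0.613 in ME) and miR-10b-5p (1.73, 2.90) averaged lower in L28BME. miR-143-3p (2.59, 1.75) and miR-145a-5p (0.287, 0.0736) averaged higher. The lymphoid miR-150-5p had 315 to 370 in L28BME and 349 to 441 in ME. The 5 measured epithelial, liver, muscle and neural markers summed to 67.5 to 82.8 in L28BME and 67.2 to 82.1 in ME. The part of other cells in the values below was not tested.

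With the deposited scaling none of the cluster's strands was called different between L28BME and ME cells, whereas 6 of 6 tested strands were called higher with plain library size and 3 of 6 with the total without let-7, as given below beside the shares of all microRNAs. Of the 7 measured strands 6 passed the filter (scaled values of 5 or more in 3 or more libraries), and limma called 0 of these 6 at an adjusted p under 0.05, whereas it called 56.1% of the 387 microRNAs tested (24% higher and 32% lower). Their log2 changes ran from -0.048 to 0.25 and had a median of 0.11, against -0.014 over all tested microRNAs. At an unadjusted p under 0.05 limma likewise gave 0 of 6. On the recovered reads edgeR called 0 of 6, with 0 at an unadjusted p under 0.05, while over all 387 it called 90 higher and 120 lower. DESeq2 called 0 of 6, with 1 (miR-532-5p) at an unadjusted p under 0.05, while over all 387 it called 83 higher and 106 lower. For the unadjusted counts no share over all tested microRNAs is given. A missed threshold does not show equal levels, so the interval of each change is given below. Taken over the 6 strands the 95% intervals reached from 0.778-fold to 1.49-fold.

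mmu-miR-532-5p, the strand that dominated the cluster, had deposited scaled values of 1065, 1163 and 1168 in the L28BME libraries, against 1067, 1061 and 975 in the ME libraries. The lowest L28BME value lay just below the highest ME value, so the groups overlapped by a narrow margin. Its means were 1132 ± 58.4 in L28BME and 1034 ± 51.3 in ME (SD, n = 3 each), a ratio of 1.09. The log2 change on the log2(value + 1) scale was 0.13 (SE 0.082, 95% interval -0.046 to 0.31, limma adjusted p = 0.191). It rested on 14288 reads in L28BME and 13519 in ME, and it ranked 60th of 1184 microRNAs in L28BME and 76th in ME by mean value.

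Mir362 gave nearly equal amounts of both arms. mmu-miR-362-5p had scaled values of 69.2, 57.3 and 56.2 in L28BME, against 59.6, 58.5 and 55.5 in ME, with overlapping groups and means of 60.9 ± 7.20 in L28BME and 57.9 ± 2.11 in ME (SD, n = 3 each). Its log2 change was 0.067 (SE 0.11, 95% interval -0.17 to 0.31, limma adjusted p = 0.632). mmu-miR-362-3p, which has been reported to repress CD146 in human endothelial cells together with its seed partner miR-329, had 78.6, 57.1 and 70.9 in L28BME, against 51.9, 58.7 and 62.4 in ME. L28BME libraries 004 and 006 lay above all 3 ME libraries and library 005 lay within their range. The means were 68.9 ± 10.9 in L28BME and 57.7 ± 5.30 in ME (SD, n = 3 each), and the log2 change was 0.24 (SE 0.13, 95% interval -0.031 to 0.52, limma adjusted p = 0.119). Without L28BME library 005 miR-362-3p was called higher (0.37, limma adjusted p = 0.0295; 19.9% of all tested microRNAs were called higher there), and without L28BME library 004 its change was 0.14 (adjusted p = 0.417).

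mmu-miR-501-3p had scaled values of 30.6, 33.9 and 31.9 in the L28BME libraries, against 24.6, 26.7 and 41.99 in the ME libraries. ME library 003 stood above all 3 L28BME libraries and ME libraries 001 and 002 below them. The means were 32.1 ± 1.63 in L28BME and 31.1 ± 9.50 in ME (SD, n = 3 each), and the log2 change was 0.083 (SE 0.17, 95% interval -0.28 to 0.44, limma adjusted p = 0.699). The coefficient of variation in ME was 30.5% in miR-501-3p, against 8.77% from counting error alone. Without ME library 003 miR-501-3p was called higher (0.31, limma adjusted p = 0.0434; 22.2% of all tested microRNAs were called higher there), and without ME library 001 its change was -0.061.

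Its seed partner mmu-miR-500-3p had 14.2, 13.5 and 14.1 in L28BME, against 16.7, 13.2 and 13.5 in ME. The L28BME values lay inside the ME range. The means were 13.9 ± 0.364 in L28BME and 14.5 ± 1.92 in ME (SD, n = 3 each), with a log2 change of -0.048 (SE 0.15, 95% interval -0.36 to 0.27, limma adjusted p = 0.803), the one tested strand of the cluster with a value below 0. ME library 003, where miR-501-3p was high, was not high for miR-500-3p.

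mmu-miR-188-5p had scaled values of 19.9, 22.0 and 19.1 in L28BME, against 18.8, 18.5 and 13.8 in ME. All 3 L28BME values lay above the ME values, by little in the case of ME libraries 001 and 002. Among the tested strands of the cluster it was the one without overlap between the groups, while the groups did not overlap for 61.5% of all tested microRNAs. The means were 20.3 ± 1.54 in L28BME and 17.0 ± 2.83 in ME (SD, n = 3 each), and the log2 change was 0.25 (SE 0.15, 95% interval -0.069 to 0.57, limma adjusted p = 0.166). Without ME library 003 the change was 0.11 (limma adjusted p = 0.512).

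**Figure D2:**
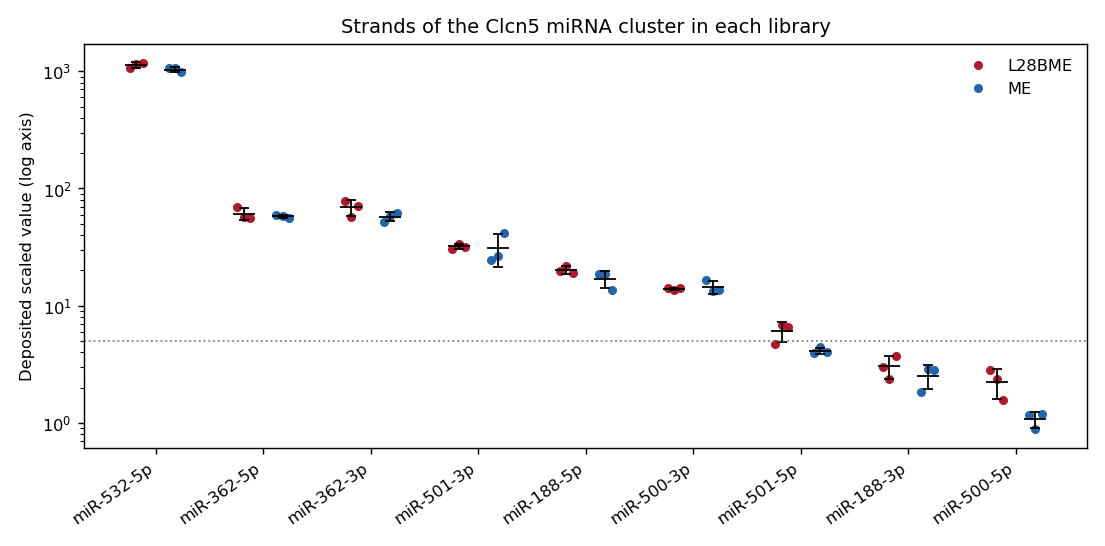
Deposited scaled values of the 9 measured strands of the cluster's hairpins (vertical log axis), L28BME left and ME right for each strand. Points are libraries, horizontal marks the group means, bars the SD (n = 3 each), and the dotted line the filter at a value of 5. miR-532-5p stands near 1132 in L28BME and 1034 in ME, far above every other strand, and the 2 groups lie close together for each tested strand.

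The other strands were scarce. mmu-miR-501-5p had 4.73, 6.87 and 6.56 in L28BME, against 3.94, 4.41 and 4.03 in ME, from 75 reads in L28BME and 54 in ME, and passed the value of 5 in only 2 libraries. The groups did not overlap. The 61.5% without overlap given above covers only the 387 tested microRNAs, and no share was counted for strands as scarce as this one and miR-500-5p. In a limma fit without a filter, over 1184 microRNAs of which 9.04% were called higher, its log2 change was 0.45 (95% interval -0.017 to 0.91, adjusted p = 0.198). The strands miR-500-5p and miR-188-3p of these hairpins, which are not among the 8, were measured as well. miR-500-5p had 2.84, 2.37 and 1.56 in L28BME, against 1.16, 0.883 and 1.19 in ME, and did not overlap between groups. It was covered by 30 reads in L28BME and 14 in ME, and the unfiltered limma fit gave 0.63 (95% interval 0.046 to 1.22, adjusted p = 0.134). In the authors' deposited table its log2 fold change was 1.11 with an FDR p of 0.0984, the lowest FDR p of the cluster. miR-188-3p had 3.02, 2.37 and 3.75 in L28BME, against 1.85, 2.87 and 2.85 in ME, with overlap and an unfiltered change of 0.20 (adjusted p = 0.662). In the authors' deposited table the FDR p of the 7 strands ran from 0.243 for miR-362-3p to 0.887 for miR-501-3p, while 14.9% of all 1452 features had one under 0.05.

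Levels within the cluster differed far more between strands than between groups. The strands are 21 to 25 bases long where a sequence was at hand, and the efficiency with which each is captured in a library was not measured, so the order describes these libraries. miR-532-5p came first, and its lowest library (975) lay far above the highest of any other strand (78.6). miR-362-5p and miR-362-3p followed and overlapped in both groups. miR-501-3p came next, below both Mir362 strands in every library. miR-188-5p and miR-500-3p overlapped in ME, but in L28BME every miR-188-5p value was above every miR-500-3p value. miR-501-5p, miR-188-3p and miR-500-5p came last. miR-532-5p made up 84.8% ± 1.54 of the reads of the 7 strands in L28BME and 85.0% ± 1.21 in ME (SD, n = 3 each).

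The preferred arm differed from hairpin to hairpin, and in Mir188, Mir501 and Mir500 it was the same in both groups. The 5p arm held 87.2% of Mir188 reads in L28BME (95% exact binomial interval 82.9% to 90.8%, counting error only) and 87.1% in ME (82.4% to 91.0%), from reads pooled over 3 libraries. It held 15.6% of Mir501 reads in L28BME (12.4% to 19.1%) and 11.8% in ME (8.98% to 15.1%), so that the 3p arm prevailed. Mir500 also favoured its 3p arm, with the 5p arm at 14.5% of reads in L28BME (9.997% to 20.0%) and 6.90% in ME (3.82% to 11.3%). The pooled intervals overlap, but by library the 5p shares of Mir500 were 16.7%, 14.9% and 10% in L28BME, against 6.49%, 6.25% and 8.06% in ME, without overlap, from 5 to 15 reads of the 5p arm in L28BME libraries and 4 to 5 in ME libraries. In Mir362 the 5p arm held 47.1% in L28BME (44.7% to 49.6%) and 50.1% in ME (47.5% to 52.7%). For this hairpin the log2 ratio of 5p to 3p values averaged -0.17 ± 0.168 in L28BME and 0.0079 ± 0.181 in ME (SD, n = 3 each). The difference of -0.18 gave p = 0.3 in a two-sided exact permutation test, of which 0.1 is the smallest p that 3 against 3 libraries allow. It ran from -0.26 (without L28BME library 005 or ME library 003) to -0.083 (without ME library 001), with -0.096 without L28BME library 006. The divisor of a library cancels in this ratio apart from the pseudocount of 1. The other hairpins had an arm under the filter, and their ratios were not tested.

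**Figure D3:**
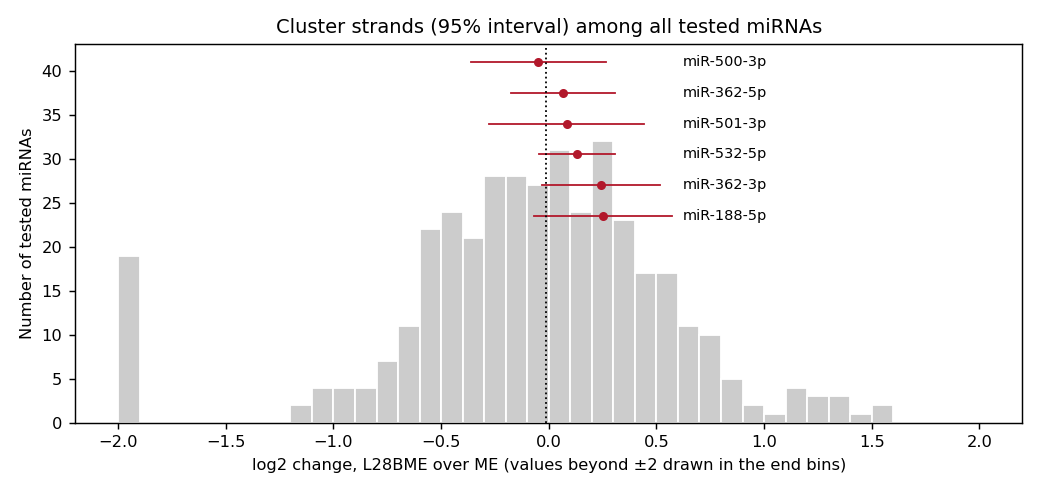
Log2 change, L28BME over ME, of 387 tested microRNAs (grey histogram, horizontal axis; vertical axis, number of microRNAs) with the 6 tested strands of the cluster as red points with 95% intervals at arbitrary heights. The strands lie between -0.048 and 0.25, in the middle of the histogram, and the dotted line marks the median of all tested microRNAs, -0.014. The bar at the left end holds strands with changes beyond the axis.

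The size of the difference depended on how let-7 reads entered the denominator. Taken as a share of all reads, the 7 strands together took 0.157%, 0.159% and 0.159% in the L28BME libraries, against 0.102%, 0.102% and 0.103% in the ME libraries. Their means were 0.158% ± 0.00167 in L28BME and 0.102% ± 0.000613 in ME (SD, n = 3 each), a ratio of 1.55, and the groups lay far apart. As a share of the reads outside let-7 the means were 0.164% ± 0.00176 in L28BME and 0.140% ± 0.00200 in ME, a ratio of 1.17. In deposited scaled values, whose divisor equals the read total times edgeR's TMM factor (1.17 to 1.22 in L28BME and 0.819 to 0.882 in ME), the sums were 1334 ± 45.7 in L28BME and 1217 ± 43.5 in ME, a ratio of 1.10. No p is given for these sums, since the strands were chosen with results known.

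**Figure D4:**
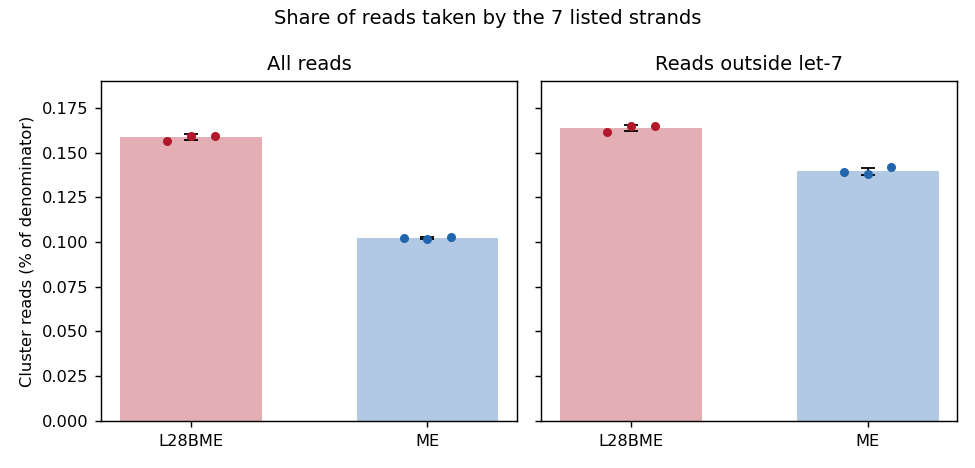
Reads of the 7 strands as a percentage of all reads (left panel) and of reads outside let-7 (right panel), L28BME left and ME right in each. Bars are means, error bars the SD, points the libraries (n = 3 each). The gap between 0.158% in L28BME and 0.102% in ME narrows to 0.164% and 0.140% once let-7 reads are left out.

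The calls depended on the scaling as well. With plain library-size scaling limma called 6 of 6 tested strands higher, with log2 changes of 0.42 (miR-500-3p) to 0.73 (miR-362-3p), but that scaling also raised the median of all tested microRNAs to 0.46 and called 62.5% of them higher. With the total without let-7 as the divisor 3 of 6 were called higher, against 33.1% of all tested: miR-532-5p (0.23, limma adjusted p = 0.0170), miR-362-3p (0.34, adjusted p = 0.0430) and miR-188-5p (0.34, adjusted p = 0.0479). With median-ratio scaling 0 of 6 were called, while 92 of the 387 tested microRNAs were called higher and 136 lower. Set against the median of all tested microRNAs under the same scaling, each strand moved little: miR-532-5p stood 0.14 above it with deposited values and 0.16 with plain library size, and miR-500-3p stood at -0.034 and -0.047. None of these scalings gives amounts per cell, and in bulk libraries fewer cells of a type and less RNA per cell cannot be told apart.

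**Figure D5:**
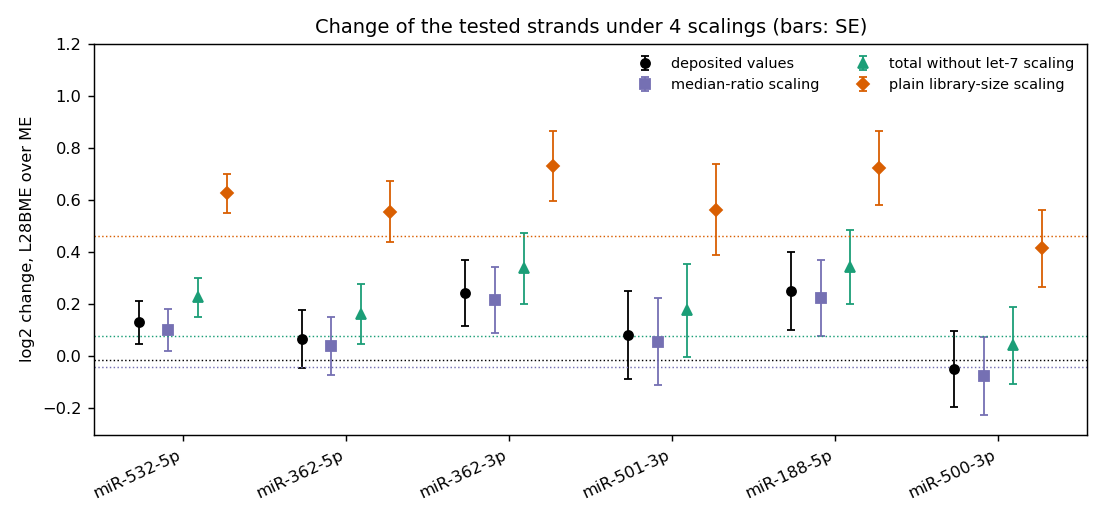
Log2 change, L28BME over ME (vertical axis), of the 6 tested strands under 4 scalings of the same reads, with bars for the SE of the limma fit. Dotted lines in matching colours mark the median of all 387 tested microRNAs under each scaling. The points of a strand move up with the dotted line, which lies at -0.014 for deposited values and at 0.46 for plain library size.

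GGAG, the letters that LIN28 zinc knuckles bind in let-7 precursors, was looked for in the hairpin sequences on the transcribed strand. It occurs in 3 of the 5 hairpins of the cluster, Mir532, Mir188 and Mir501, in 44.5% of the 1005 RefSeq mouse hairpins, and in 9 of 12 let-7 family hairpins. In Mir532 it begins at base 80 of 96. No mature sequence of miR-532-5p was at hand, so this motif was not placed against the arms or the loop. In Mir188 it begins at base 21 of 68, inside miR-188-5p, and in Mir501 at base 106 of 109, beyond the 3p arm. It is shown in capitals in Mir188 and Mir501.
Mir188: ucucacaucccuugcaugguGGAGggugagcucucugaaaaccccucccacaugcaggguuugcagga
Mir501: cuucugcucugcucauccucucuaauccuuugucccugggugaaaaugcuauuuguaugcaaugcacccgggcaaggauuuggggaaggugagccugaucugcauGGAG
In the 4 hairpins of the cluster with both arms annotated (all but Mir532), 0 loops between the arms hold GGAG, against 8.07% of 644 such loops in all. The tested strands of hairpins with GGAG (miR-532-5p, miR-188-5p and miR-501-3p) had log2 changes of 0.13, 0.25 and 0.083, and those of hairpins without it (miR-362-5p, miR-362-3p and miR-500-3p) had 0.067, 0.24 and -0.048. A match is a description of the letters and not a binding site.

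Other X-linked microRNAs gave a mixed picture beside the cluster, to be read against the 24% of all tested microRNAs called higher and the 32% called lower. In the cluster of miR-106a and miR-363, a relative of miR-17~92, 1 of 5 tested strands rose and 4 did not pass (median log2 change 0.060), with miR-20b-5p at 3914 ± 182 in L28BME and 3946 ± 491 in ME and miR-18b-5p higher by 0.53. In the cluster of miR-322 and miR-503 3 of 11 listed strands rose, 4 fell and 4 did not pass (median -0.014 over these 11). Among them miR-322-5p stood at 5496 ± 156 in L28BME and 5585 ± 754 in ME, and miR-503-5p changed by -0.18 (limma adjusted p = 0.0527). The list leaves out miR-450a-1-3p, a further tested strand of this cluster, which was called higher (0.46, limma adjusted p = 0.0382). In the pair of miR-221 and miR-222 4 of 4 fell (median -0.60; 1 of 4 with plain library-size scaling), among them miR-221-3p, a repressor of the stem cell factor receptor Kit, at 7393 ± 360 in L28BME and 10695 ± 254 in ME (SD, n = 3 each), and miR-222-3p with a log2 change of -0.67. Over all 36 tested strands outside the cluster whose RefSeq hairpins lie on X alone, 5 rose, 16 fell and 15 did not pass, with a median of -0.028. The 16 include 3 let-7 family strands (miR-98-5p, miR-98-3p and let-7f-2-3p), and without them 13 of 33 fell (median -0.014). With plain library-size scaling 62.5% of all tested microRNAs were called higher and 33 of 387 lower. In the first 2 of these clusters 5 of 5 and 7 of 11 listed strands were then higher, and in the miR-221 and miR-222 pair 0 of 4. Over the 36 strands 21 were higher and 5 lower, the 5 including the 3 of the let-7 family. Of the tested microRNAs 323 of 387 had a RefSeq entry for this count. Whether the cluster differs from these groups was not tested.

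The 5 tested microRNAs outside the cluster whose profile over the 6 libraries was most like the summed cluster, by Pearson's r of log2 values, were miR-467c-5p (0.972), miR-7079-3p (0.971), miR-1983 (0.968), miR-669a-3p (0.965) and miR-126a-3p (0.964). With 6 libraries in 2 groups these values mostly describe a difference between the groups. The summed cluster ran from 1282 to 1367 in L28BME and from 1166 to 1242 in ME, so choosing by r favours microRNAs that are higher in L28BME. All 5 were called higher there, against 24% of all tested microRNAs, a count that follows largely from this choice. Their log2 changes were 0.26 for miR-467c-5p, 0.73 for miR-7079-3p, 0.50 for miR-1983, 0.38 for miR-669a-3p and 0.48 for miR-126a-3p.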

How the data were processed

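Libraries were made from total RNA with the QIAseq miRNA kit, per the labels' protocols, on build GRCm38 per the submitters' processing notes. The sources used here give no aligner, no counter and no account of how molecular identifiers were handled. The authors deposited a scaled signal named CPM, per the file headers, whose column sums differ between libraries. Whole reads were recovered from it, since 100% of values in each library came out as whole numbers after division by the smallest one (tolerance 0.001). The authors also deposited p-values, log2 fold changes and a score that is their fold change with a sign, per the file headers, which name no tool. Columns give groups and library numbers (001 to 006), no replicate numbers.

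The design assumed CPM. The signal was tested as planned for it: 387 microRNAs reached 5 in 3 or more libraries, and their log2(value + 1) entered limma's trend test with group as the term (two-sided, Benjamini-Hochberg over all 387, called under 0.05). Alternatives were 3 other scalings, filters, pseudocounts of 0.5 and 5, limma without trend, piRNA features tested together with the microRNAs, edgeR and DESeq2 on recovered reads, and each library left out. The code was tested on simulated counts. Members, lists and named microRNAs (the cluster's strands, seed partners, the 5 nearest profiles and fixed X-linked clusters) were chosen with earlier results of these data known. Hairpin identity is over aligned bases of a global alignment with free end gaps. Loci are from GENCODE M21 (GRCm38). Tools were Biopython 1.88, scipy 1.17.1, matplotlib 3.10.9, and DESeq2 1.42.0, edgeR 4.0.16 and limma 3.58.1 in R 4.3.3. Depth per library, counted over the 1452 features, was 2745970 to 5528960 reads, and intervals on reads cover counting error only.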

Additional observations from a re-analysis of the deposited data

How the results depend on the processing

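Scaling was the choice that mattered most. With plain library size the tested microRNAs called higher numbered 242 and lower 33 (93 and 124 with deposited values), the cluster strands called higher 6, and their median log2 change 0.60. edgeR with plain library size, chosen after the data were seen, gave 241, 34, 6 and 0.61. The total without let-7 gave 3 cluster strands called higher and lowered the ratio of the summed share, L28BME over ME, to 1.17. Leaving out single libraries gave 0 to 1 cluster strands called higher. miR-500-3p had values above 0 with plain library size (0.42, and 0.44 by edgeR) and with the total without let-7 (0.043), scalings that lift all microRNAs together: relative to the median of all tested it stayed below, at -0.047 and -0.035 by limma. Without ME library 001 its direction turned (0.052). That of miR-501-3p turned without ME library 001 (-0.061) or 002 (-0.0031), and that of miR-362-5p without L28BME library 004 (-0.027). Over the single libraries left out these 3 strands ran from -0.10 to 0.052, from -0.061 to 0.31 and from -0.027 to 0.12. The cause was not tested. miR-532-5p, miR-362-3p and miR-188-5p stayed above 0 in every alternative run, at 0.088 to 0.63, 0.14 to 0.76 and 0.11 to 0.76. Without a filter the median is over 7 strands. Strands with under 100 reads in a group (miR-501-5p, miR-500-5p, miR-188-3p) are limited by depth. No paired analysis was possible because the columns carry no replicate numbers.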
